A study of Homo sapiens with 6 samples.

Results

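The tumor necrosis factor (TNF) superfamily ligands and receptors were taken from the RNA-seq of MDA-MB-231 cells by gene symbol alone. A gene was included when its symbol began with TNFSF or TNFRSF, or was TNF, LTA, LTB, FAS, FASLG, CD40, CD40LG, CD27, CD70, NGFR, LTBR, EDAR or RELT. This gave 46 of the 23228 listed genes, made up of 17 ligands, 28 receptors and the read-through gene TNFSF12-TNFSF13. The MDA-MB-231 line was derived from a human triple negative breast cancer (TNBC). The study compared 3 replicates of cells with a stably expressed shRNA against the proto-oncogene PELP1 (PELP1-KD) with 3 replicates of cells with a non-targeted shRNA (control). Both kinds of cells had been made by lentiviral transfer and puromycin selection, and a single PELP1 shRNA was used. The labels do not say that the replicates came from separate cultures, so the p-values measure the spread between these samples, which may be technical.

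TNF superfamily ligands are trimeric proteins that sit on the cell surface or are shed from it, and each binds particular receptors with cysteine-rich outer domains. Receptors with a death domain can recruit FADD and caspase-8 or the adaptor TRADD, and receptors without one bind TRAF adaptors and activate NF-κB. Decoy receptors bind a ligand but lack a working signalling tail. In breast cancer cells the family is best known for TRAIL-induced cell death, for TNF-driven NF-κB activity and for RANK signalling.

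Reads counted on genes ranged from 17304864 to 23132102 per replicate, so that 3 reads, taken as the floor of detection, stood for 0.13 to 0.173 CPM (counts per 1000000 counted reads). Such floors cover counting error only. PELP1 itself had 57.2, 56.0 and 60.2 CPM in the control replicates against 28.6, 29.8 and 30.2 CPM in the PELP1-KD replicates, a log2 fold change (log2FC, PELP1-KD minus control) of -0.97. Of 8 leukocyte markers 4 had no read, among them PTPRC, MS4A1 and NKG7, and the list's summed level (117 to 120 CPM in control, 90.7 to 97.6 CPM in PELP1-KD) was nearly all CD68. The mesenchymal marker VIM stood at 2220 CPM in control cells, while ESR1 and PGR stood at 0.033 and 0.092 CPM. ERBB2, which encodes HER2, stood at 113 CPM in control cells and the epithelial marker EPCAM at 9.46 CPM. The other markers listed for the line were CD44 at 1208, EGFR at 132 and CDH1 at 0.095 CPM in control cells. In PELP1-KD cells VIM, CD44 and EGFR were lower, at 1922, 828 and 110 CPM. ERBB2 and EPCAM stood at 118 and 9.56 CPM there, and ESR1, PGR and CDH1 at 0.016, 0.062 and 0.050 CPM. Of 6 stromal and endothelial markers, DCN had no read, and the summed level was 14.4 to 17.4 CPM in control and 46.0 to 48.3 CPM in PELP1-KD replicates, most of it PDGFRB. Its part in the results was not tested.

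Of the 46 genes, 27 had enough reads to be tested, 13 had some reads but too few, and 6 had none. PELP1-KD cells had higher expression of 11 tested genes and lower expression of 4, while the other 12 did not pass an adjusted p-value of 0.05 (edgeR's quasi-likelihood test, adjusted over all 12796 tested genes, as for every adjusted p-value given here). That is 40.7% higher and 14.8% lower, where 22.7% of all tested genes were higher and 24.2% were lower. TNFSF15 and TNFSF4 passed the filter on low reads only through the group in which they were high, and with these left out 10 of 25 genes were higher and 3 were lower. The changes ran from a log2FC of -1.73 to 2.31, with a median of 0.037 against 0.0014 for all tested genes. Both ends were TNFSF4 and TNFSF15, and without these 2 genes the range was -1.63 to 1.79. A log2FC beyond 1 was reached upward by TNFSF15, TNFSF18 and TNFRSF11B and downward by TNFSF4, NGFR and TNFRSF11A. Among all tested genes, 1.9% were that far up and 1.34% that far down. With TNFSF15 and TNFSF4 left out, 2 of 25 genes were that far up and 2 that far down. The values of both groups were fully separated in 17 tested genes (63%), against 55% of all tested genes. Of the 25 genes without TNFSF15 and TNFSF4, 15 (60%) were separated.

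**Figure D1:**
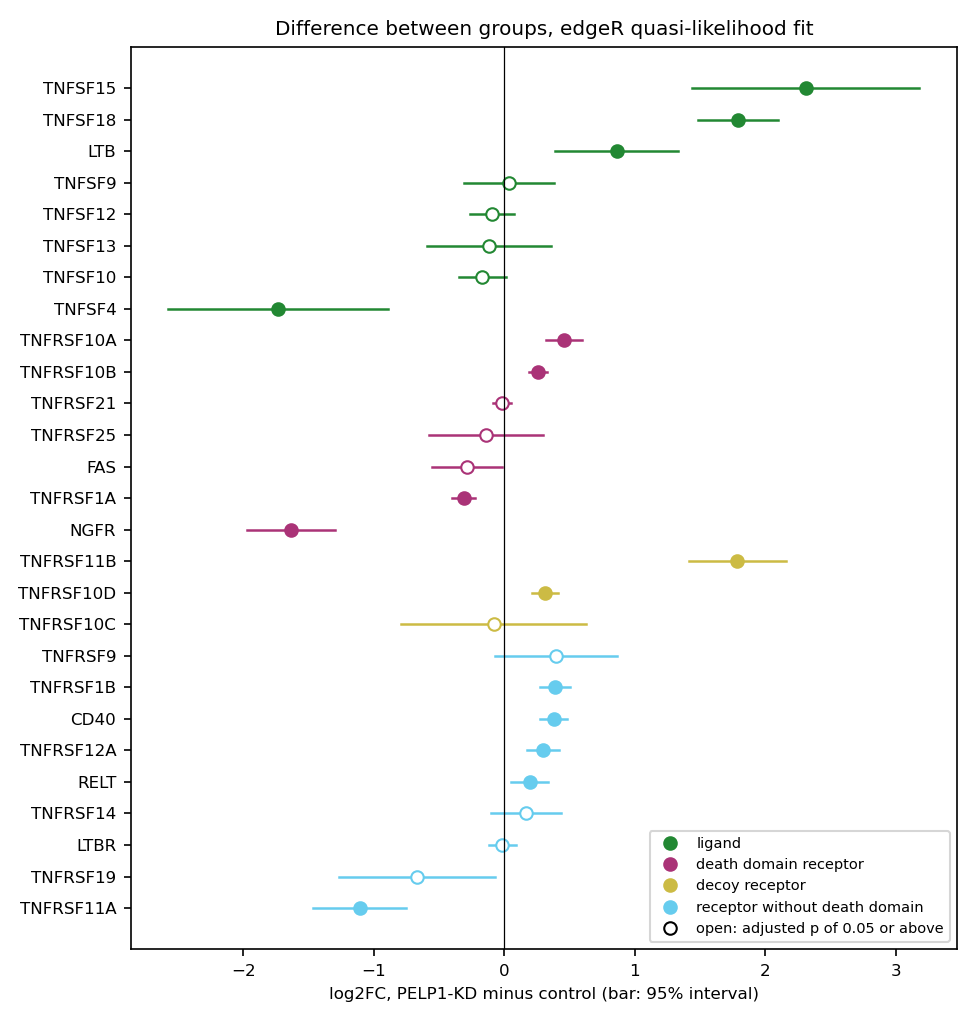
The horizontal axis gives the log2FC of each of the 27 tested genes (PELP1-KD minus control) with its 95% interval as a bar, and the vertical axis lists the genes by class. Filled points passed an adjusted p-value of 0.05; the ligands run from -1.73 (TNFSF4) to 2.31 (TNFSF15), while most receptors lie within 0.5 of 0 apart from TNFRSF11B, NGFR, TNFRSF11A and TNFRSF19.

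Of the 17 ligands, 8 were tested, and TNFSF18, TNFSF15 and LTB rose while TNFSF4 fell. That is 37.5% higher and 12.5% lower, against 22.7% and 24.2% of all tested genes. Among these 4 ligands, TNFSF15 and TNFSF4 were tested only through the group in which they were high. TNFSF18 encodes the ligand of the T-cell receptor GITR. Its level was 2.01, 1.76 and 1.86 CPM in control replicates 1, 2 and 3 against 6.77, 6.51 and 6.12 CPM in PELP1-KD replicates 1, 2 and 3. Every PELP1-KD replicate was thus more than 3 times the level of every control replicate. The log2FC was 1.79 (standard error, SE, 0.147, adjusted p-value 3.8e-09).

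TNFSF4 encodes OX40 ligand, another costimulatory ligand of T cells, and moved the opposite way. Its level was 1.06, 0.616 and 0.901 CPM in the control replicates against 0.256, 0.141 and 0.34 CPM in the PELP1-KD replicates. All 3 PELP1-KD replicates lay below all control replicates, and the log2FC was -1.73 (SE 0.404, adjusted p-value 0.00143). These levels rest on 48 reads in the control group and 16 in the PELP1-KD group, a ratio of 0.297 (95% exact interval from counting error 0.158 to 0.533). TNFSF4 passed the filter on low reads only through the control group, so its p-value is not independent support. TNFSF18 and TNFSF4 are next to each other among the superfamily members on chromosome 1 of GRCh38, both on the minus strand and 132.8 kb apart. GENCODE places TNFSF18 at 173039960 to 173050963 and TNFSF4 at 173183734 to 173207313. FASLG, the ligand of FAS, lies 373.1 kb from TNFSF18 on the other side and had between 0 and 3 reads in each replicate.

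TNFSF15 encodes TL1A, the ligand of the death domain receptor TNFRSF25. It had 2, 4 and 4 reads in the control replicates against 19, 22 and 16 in the PELP1-KD replicates. Control replicate 1 was under the floor of 3 reads, and the groups did not overlap. The ratio of the summed reads, scaled to library size, was 5.08 (95% exact interval from counting error 2.57 to 11.2). In edgeR's test the log2FC was 2.31 (SE 0.418, adjusted p-value 1.29e-04). TNFSF15 passed the filter on low reads only through the PELP1-KD group, so this p-value is not independent support. Its receptor TNFRSF25 stood at 2.02 CPM ± 0.443 (SD, n = 3) in control and 1.83 CPM ± 0.246 (SD, n = 3) after PELP1 knockdown, a log2FC of -0.14 (95% interval -0.58 to 0.30). Exons of TNFRSF25 overlap those of PLEKHG5 on the same strand and of ESPN on the other, so its reads are uncertain.

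LTB encodes lymphotoxin beta, which joins lymphotoxin alpha in a membrane trimer that binds LTBR. Its level was 1.24, 2.51 and 1.30 CPM in the control replicates against 2.67, 3.61 and 3.23 CPM in the PELP1-KD replicates. Control replicate 2 stood near the lowest PELP1-KD replicate, although the groups did not overlap. The log2FC was 0.86 (SE 0.225, adjusted p-value 0.00357). Leaving out single replicates gave 0.69 (without control replicate 1) to 1.32 (without control replicate 2). LTA had 0, 9 and 1 reads in the control replicates against 5, 3 and 1 in the PELP1-KD replicates, so control replicate 2 was the highest library for LTA as well. TNF, which lies between LTA and LTB, had 2 to 5 reads in every replicate.

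The remaining tested ligands did not pass the threshold. TNFSF10 encodes TRAIL, the ligand of the TRAIL death receptors, and stood at 12.7, 14.2 and 13.6 CPM in control and 12.6, 11.5 and 12 CPM in PELP1-KD replicates (log2FC -0.17, 95% interval -0.35 to 0.01, adjusted p-value 0.113). The groups did not overlap, by a margin of less than 0.1 CPM. TNFSF12, which encodes TWEAK, stood at 17.7 CPM ± 0.749 (SD, n = 3) in control and 16.6 CPM ± 1.51 (SD, n = 3) after PELP1 knockdown. TNFSF9, the 4-1BB ligand, stood at 2.96 CPM ± 0.032 and 3.01 CPM ± 0.539, and TNFSF13, which encodes APRIL, at 2.06 CPM ± 0.478 and 1.89 CPM ± 0.552 (SD, n = 3 each). The 95% intervals of their log2FC were -0.26 to 0.08 for TNFSF12, -0.31 to 0.38 for TNFSF9 and -0.59 to 0.36 for TNFSF13. Exons of TNFSF12 and TNFSF13 overlap those of the read-through gene TNFSF12-TNFSF13, which the deposited counts list with no read in any replicate. Reads on exons shared with it would be placed on no gene, so the levels of TNFSF12 and TNFSF13 may be too low. The exon positions in the annotation used by the authors are not known.

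**Figure D2:**
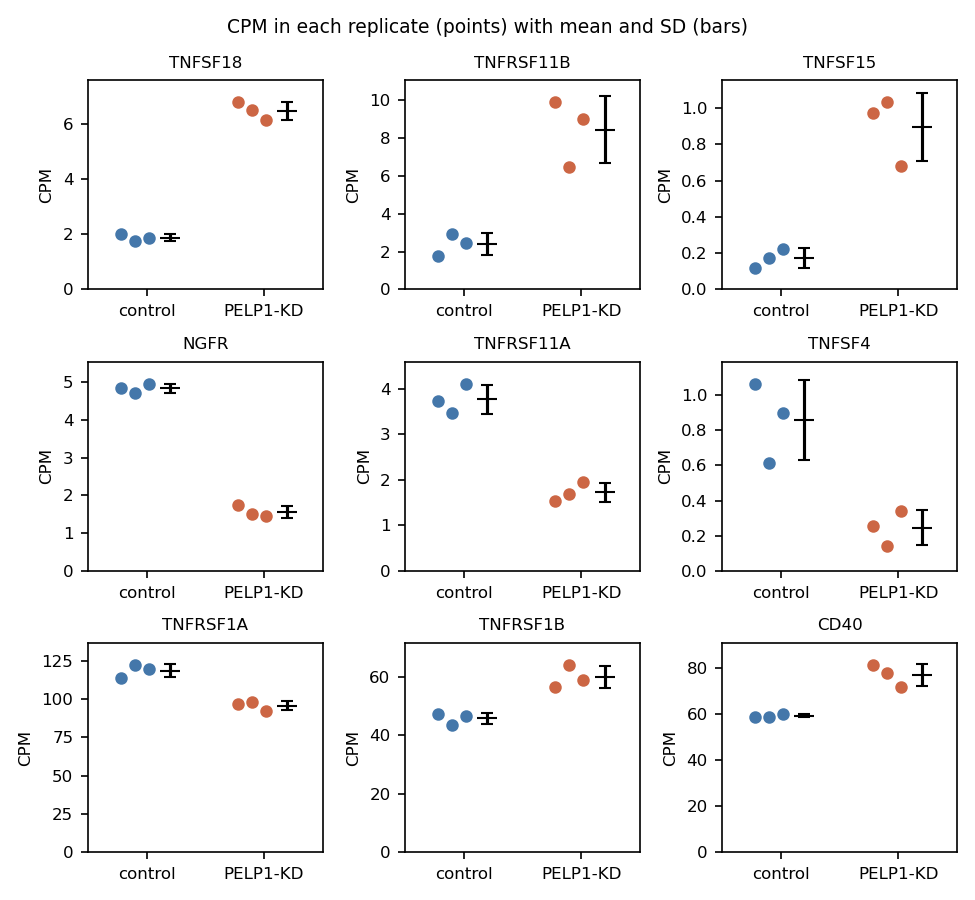
Each panel plots the CPM of a named gene on an axis that starts at 0, with a point for each of the 3 control and 3 PELP1-KD replicates and a bar for mean and SD. The groups are apart in all 9 panels, and the widest spread relative to the mean is that of TNFSF4 and TNFSF15, which have the fewest reads of these genes.

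Promoter sequences of 29 of the 46 genes were matched in the RefSeq table (build GRCh38.p14), which holds 250 bases before and 50 after a start site. They included 5 of the 11 genes that rose and 3 of the 4 that fell. Each was searched on both strands for 3 motifs: the kappa-B consensus bound by NF-κB, TGANTCA bound by AP-1, and the E-box CACGTG bound by c-Myc and other factors. The kappa-B consensus was found in 5 of the 29 promoters and in 10.8% of the 27305 promoters in the table, the AP-1 motif in 6 of 29 and in 7.76%, and the E-box in 3 of 29 and in 7.43%. Of the matched genes that rose, LTB held kappa-B and TNFSF15 held AP-1, and none of the matched genes that fell held any of the 3 motifs. No match of a motif overlapped a match of another in these 29 promoters. The windows below are those of the genes that rose, of TNFRSF9, whose kappa-B match reads on both strands, and of TNFRSF21 and LTBR, which hold the E-box and had a log2FC near 0. Each window has 30 bases, 5′ to 3′ on the strand of the gene, with the motif in capitals.
LTB, kappa-B, 86 bases before the start (chr6:31582492-31582521, minus strand): aggggtgtgcGGAAAGTCCCagccaggtgt
LTB, kappa-B, 39 bases after the start (chr6:31582376-31582405, minus strand): gggctggagggcaggggtGGGAGGCTCCag
TNFSF15, AP-1, 120 bases before the start (chr9:114792633-114792662, minus strand): gactctttcttcTGAGTCAccctgtccttg
TNFRSF9, kappa-B, 74 bases before the start (chr1:7940894-7940923, minus strand): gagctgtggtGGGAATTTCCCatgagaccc
TNFRSF21, E-box, 34 bases before the start (chr6:47309922-47309951, minus strand): cttcggcgccacCACGTGtgtccctgcgcc
LTBR, E-box, 134 bases before the start (chr12:6384016-6384045, plus strand): ccccgcggccctCACGTGctttcccggccg
The RefSeq start of TNFSF15 lies 13596 bases downstream of the 5′ end that GENCODE gives the gene, that of LTBR 9117 bases, that of TNFRSF9 2326 bases and that of LTB 97 bases, so the windows of these 4 genes lie inside the GENCODE gene bodies. A match is a string of letters, and binding was not measured.

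Of the 8 death domain receptors, 7 were tested, and EDAR had no read. NGFR, the p75 neurotrophin receptor, lies on chromosome 17 of GRCh38 at 49495293 to 49515017 and had the largest fall among them. Its level was 4.85, 4.71 and 4.95 CPM in the control replicates against 1.74, 1.5 and 1.44 CPM in the PELP1-KD replicates. Control replicates were close to each other and roughly 3 times the PELP1-KD replicates, and the log2FC was -1.63 (SE 0.161, adjusted p-value 5.99e-08).

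The receptors of TNF moved in opposite directions. TNFRSF1A, the death domain receptor TNFR1, fell from 114, 122 and 120 CPM in the control replicates to 96.6, 98.1 and 92.3 CPM in the PELP1-KD replicates, which is 19.2% lower (log2FC -0.31, SE 0.042, adjusted p-value 4.9e-06). TNFRSF1B, which encodes TNFR2 and has no death domain, rose from 47.2, 43.7 and 46.6 CPM to 56.7, 63.9 and 59.0 CPM, which is 30.7% higher (log2FC 0.39, SE 0.056, adjusted p-value 8.63e-06). In neither gene did the groups overlap. The ratio of TNFRSF1B to TNFRSF1A, taken per exon length within a replicate and so free of library scaling, was 0.441, 0.381 and 0.414 in the control and 0.624, 0.693 and 0.68 in the PELP1-KD replicates.

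Both TRAIL death receptors rose. TNFRSF10A, which encodes DR4, stood at 24.1, 22.8 and 21.8 CPM in control and 29.5, 32.8 and 31.8 CPM in PELP1-KD replicates, 37.1% higher (log2FC 0.46, SE 0.066, adjusted p-value 9.79e-06). TNFRSF10B, which encodes DR5, stood at 213, 209 and 208 CPM in control and 259, 250 and 244 CPM in PELP1-KD replicates, 19.5% higher (log2FC 0.26, SE 0.034, adjusted p-value 2.8e-06). Among the TRAIL decoys, TNFRSF10D, which encodes DcR2 with a truncated death domain, rose from 64.4, 59.5 and 59.6 CPM to 75.2, 74.7 and 77.0 CPM (log2FC 0.31, SE 0.048, adjusted p-value 2.21e-05). TNFRSF10C, which encodes the membrane-anchored decoy DcR1, had 8 to 16 reads in each replicate and a log2FC of -0.08 with a wide 95% interval of -0.79 to 0.63. The groups did not overlap in the 3 genes that rose. The ratio of both decoys to both death receptors, per exon length, was 0.374, 0.355 and 0.361 in control and 0.358, 0.359 and 0.381 in PELP1-KD replicates, and the groups overlapped. These 4 genes lie side by side in the genome and resemble each other in sequence, and since multiply aligned reads were placed on no gene, their levels are uncertain. Antisense exons of RHOBTB2 overlap TNFRSF10B.

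The other death domain receptors did not pass the threshold. FAS, the receptor of FASLG, stood at 5.61, 5.19 and 5.85 CPM in control and 4.51, 4.12 and 4.93 CPM in PELP1-KD replicates; the groups did not overlap, and the log2FC was -0.29 (95% interval -0.55 to -0.02, adjusted p-value 0.0708). FAS overlaps exons of ACTA2 on the opposite strand, and whether the reads were counted by strand is not given in the sources used here. TNFRSF21, which encodes DR6, was among the most abundant members at 249 CPM ± 5.55 (SD, n = 3) in control and 247 CPM ± 3.05 (SD, n = 3) after PELP1 knockdown. Its 95% interval, a log2FC of -0.08 to 0.05, was the narrowest of the tested members.

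Of the 4 decoy receptors, TNFRSF11B had the largest change. It encodes osteoprotegerin, a secreted decoy for RANK ligand that also binds TRAIL. Its level was 1.77, 2.95 and 2.48 CPM in the control replicates against 9.90, 6.47 and 9.0 CPM in the PELP1-KD replicates. The lowest PELP1-KD replicate was more than 2 times the highest control replicate, and the log2FC was 1.78 (SE 0.178, adjusted p-value 6.71e-08). TNFRSF11A, which encodes RANK, the signalling receptor of the same ligand, fell from 3.72, 3.48 and 4.11 CPM to 1.54, 1.69 and 1.95 CPM, a log2FC of -1.11 (SE 0.172, adjusted p-value 2.26e-05). The groups did not overlap in either gene. TNFSF11, which encodes RANK ligand itself, had no read in any replicate, which allows up to 3 reads (0.13 to 0.173 CPM). TNFRSF6B, the secreted decoy DcR3, had 2, 5 and 4 reads in control and 2, 1 and 2 in PELP1-KD replicates, too few for a test. Its exons also overlap those of RTEL1-TNFRSF6B and, on the other strand, ARFRP1.

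Of the 16 receptors without a death domain, 9 were tested, with TNFRSF1B, CD40, TNFRSF12A and RELT rising and TNFRSF11A falling. The shares were 44.4% higher and 11.1% lower, against 22.7% and 24.2% of all tested genes. CD40, a costimulatory receptor best known from B cells and dendritic cells, rose from 58.9, 58.9 and 60.1 CPM to 81.2, 78.0 and 72.1 CPM (log2FC 0.38, SE 0.051, adjusted p-value 3.75e-06). The groups were well apart, and its ligand CD40LG had no read. TNFRSF12A, the TWEAK receptor Fn14, stood at 166, 210 and 215 CPM in control and 242, 244 and 241 CPM in PELP1-KD replicates, with a log2FC of 0.30 (SE 0.060, adjusted p-value 3.69e-04). Control replicate 1 was the low library here, and without it the log2FC was 0.19 (adjusted p-value 2.15e-06). TNFRSF12A overlaps exons of CLDN6 on the opposite strand.

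RELT, a receptor that binds TRAF1, had the weakest call. It stood at 22.2, 25.3 and 24.5 CPM in control and 26.5, 29.1 and 27.1 CPM in PELP1-KD replicates (log2FC 0.19, SE 0.069, adjusted p-value 0.0258). The call was lost without control replicate 1 (log2FC 0.14, adjusted p-value 0.0961), without PELP1-KD replicate 2 (0.15, adjusted p-value 0.11), without PELP1-KD replicate 3 (0.21, adjusted p-value 0.0503) and in DESeq2 (0.20, adjusted p-value 0.0575). LTBR, the receptor of lymphotoxin beta, stood at 99.6, 115 and 114 CPM in control and 107, 112 and 106 CPM in PELP1-KD replicates, with overlapping groups and a log2FC of -0.01 (95% interval -0.12 to 0.09). LTBR overlaps exons of SCNN1A on the opposite strand. TNFRSF14, which encodes HVEM, stood at 4.77 CPM ± 0.21 and 5.35 CPM ± 0.629 (SD, n = 3 each), and TNFRSF9, which encodes 4-1BB, at 1.6 CPM ± 0.214 and 2.07 CPM ± 0.552, with 95% intervals of -0.10 to 0.44 and -0.07 to 0.86. TNFRSF19, which encodes TROY, stood at 1.48, 1.41 and 0.957 CPM in control and 0.974, 0.515 and 0.934 CPM in PELP1-KD replicates, and the groups overlapped. Its log2FC was -0.67 (95% interval -1.27 to -0.07, adjusted p-value 0.0613), and it passed the threshold without control replicate 3 (-0.83, adjusted p-value 0.031).

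Genes can be compared with each other only per length, so reads were divided by the exon length of each gene (RPKM, here CPM per kilobase of exon). In control cells TNFRSF12A was the highest at 107 RPKM, with a range of 89.9 to 116, followed by TNFRSF21 at 69.4, TNFRSF10B at 40.7, TNFRSF1A at 29.6 and CD40 at 23.5 RPKM. None of these overlapped its neighbour in the order. LTBR at 17.4 RPKM (15.9 to 18.3) and TNFRSF10D at 17.3 RPKM (16.8 to 18.2) did not differ beyond their spread, and TNFRSF1B followed at 12.2 RPKM. The highest ligand was TNFSF12 at 9.42 RPKM, above TNFRSF10A at 7.76 RPKM. TNFSF10 at 3.88 and RELT at 3.80 RPKM overlapped. From NGFR at 1.17 RPKM through LTB, TNFSF18, TNFSF13 and TNFRSF11B down to TNFRSF14 at 0.767 RPKM, each gene overlapped the next. In PELP1-KD cells CD40 at 30.5 RPKM stood above TNFRSF1A at 23.9 RPKM, and TNFSF18 went from place 17 to place 13 and NGFR from place 15 to place 21 in the order. These lengths come from GENCODE on GRCh38 and not from the hg19 annotation behind the counts. Reads on exons that TNFSF12 and TNFSF13 share with TNFSF12-TNFSF13 may be missing from their RPKM.

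**Figure D3:**
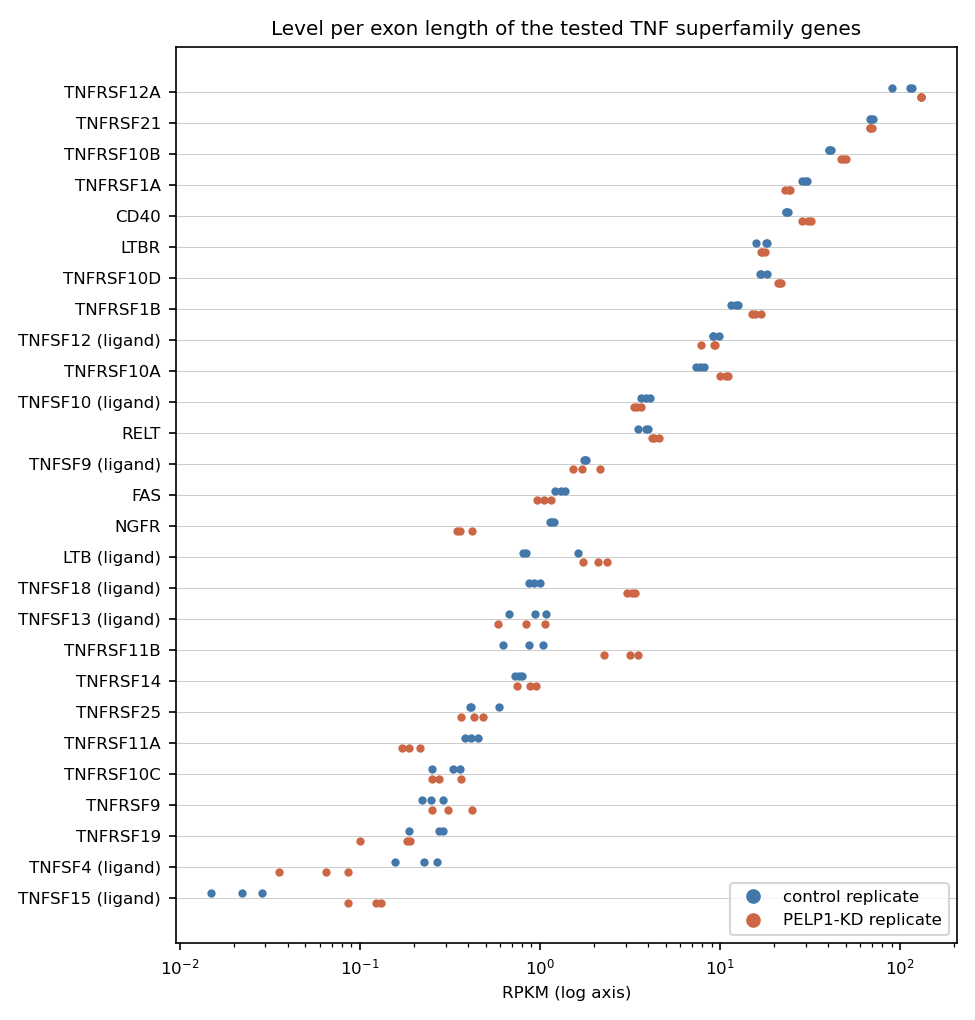
The horizontal axis gives the RPKM of each replicate on a log axis, and the vertical axis lists the 27 tested genes from the highest control level, with ligands marked. TNFRSF12A leads at 107 RPKM in control, most ligands lie below 4 RPKM, and the groups stand farthest apart in NGFR, TNFSF18, TNFRSF11B, TNFRSF11A, TNFSF4 and TNFSF15.

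The genes without a test were near or under the floor in both groups. Besides TNFSF11, EDAR, CD40LG and TNFSF12-TNFSF13, CD27 and TNFRSF13B had no read. TNFRSF18, which encodes GITR, the receptor of TNFSF18, had 2 to 8 reads in each replicate, and TNFRSF4, which encodes OX40, the receptor of TNFSF4, had 1 read in control replicate 1 and 0 elsewhere. TNFSF13B, which encodes BAFF, had 0 to 5 reads, TNFRSF13C, its receptor, 0 to 3, and TNFRSF17, which encodes BCMA, 0 or 1. CD70, TNFSF8 and TNFSF14 had 0 or 1 read in each replicate, and TNFRSF8, which encodes CD30, had no read in any control replicate and 0, 1 and 3 after PELP1 knockdown. A fall or a modest rise in these genes was not detectable at this depth.

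The signalling genes around the receptors were read from the same test in 5 lists with 81 genes, of which 74 were tested. PELP1-KD cells had 28 of them higher and 21 lower, which is 37.8% and 28.4%, against 22.7% and 24.2% of all tested genes. The median log2FC was 0.06, against 0.0014 for all tested genes. With library totals as the only scaling, the numbers were 35 and 17. For all 12796 tested genes they were then 3817 and 2419 in place of 2904 and 3103. Under this scaling the median log2FC of all tested genes was 0.05.

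In the adaptor list 9 of 26 genes (34.6%) were higher and 8 (30.8%) were lower, against 22.7% and 24.2% of all tested genes, with a median log2FC of 0.01. The genes with the lowest p-values among those that rose were TRAF4 (log2FC 0.49, adjusted p-value 5.25e-08), CASP10, an initiator caspase of death receptors (0.68, adjusted p-value 6.89e-06), and TRAF3, a brake on noncanonical NF-κB (0.25, adjusted p-value 6.29e-05). Those that fell were led by BIRC3, which encodes the ubiquitin ligase cIAP2, from 171 CPM ± 11.6 to 112 CPM ± 4.33 (SD, n = 3 each; log2FC -0.61, adjusted p-value 1.08e-09). OTULIN, listed as FAM105B and encoding a linear-ubiquitin protease, followed (-0.45, adjusted p-value 4.72e-07), and then BIRC2, which encodes cIAP1 (-0.26, adjusted p-value 1.08e-05).

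In the NF-κB core list 21.4% of the 14 genes were higher and 28.6% were lower, shares near the 22.7% and 24.2% of all tested genes. The 3 that rose were NFKB2 (log2FC 0.24, adjusted p-value 6.81e-04), NFKBIE (0.15, adjusted p-value 0.0219) and NFKBIB (0.22, adjusted p-value 0.0354). The 4 that fell included MAP3K14, which encodes the NF-κB-inducing kinase, from 35.1 CPM ± 0.932 to 23.3 CPM ± 1.57 (SD, n = 3 each; log2FC -0.60, adjusted p-value 2.35e-07). IKBKB, a kinase of the IκB inhibitors, fell as well (-0.36, adjusted p-value 2.67e-05), as did NFKB1 (-0.18, adjusted p-value 0.00282).

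In the list of death execution genes 3 of 12 tested genes (25%) were higher, near the 22.7% of all tested genes, and 5 (41.7%) were lower, against 24.2%. RIPK3, a kinase of necroptosis, had no read. XIAP, an inhibitor of caspases, and MLKL, the effector of necroptosis, fell (log2FC -0.32 and -0.27). BAK1 and BAX, which permeabilize the outer mitochondrial membrane, rose, with a log2FC of 0.38 and 0.18.

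In the list of genes that shed or process the ligands and receptors, 2 of 6 genes were higher and 2 were lower (33.3% each, against 22.7% and 24.2% of all tested genes). TIMP3, an inhibitor of the sheddase ADAM17, fell from 44.4 CPM ± 1.37 to 15.3 CPM ± 0.254 (SD, n = 3 each; log2FC -1.53, adjusted p-value 7.77e-14). ADAM17 itself fell as well (log2FC -0.56, adjusted p-value 7.8e-09). FURIN, a protease that cuts proprotein forms of several ligands, rose (0.49, adjusted p-value 8.81e-10), as did RHBDF2, a cofactor of ADAM17 (0.15, adjusted p-value 0.0388).

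In the list of NF-κB target genes 11 of 16 tested genes (68.8%) were higher and 2 (12.5%) were lower, against 22.7% and 24.2% of all tested genes, with a median log2FC of 0.27. The rises with the lowest p-values were those of CSF2, which encodes GM-CSF, from 23.5 CPM ± 1.52 to 66.5 CPM ± 3.54 (SD, n = 3 each; log2FC 1.51, adjusted p-value 8.05e-14), of CXCL1 (0.90, adjusted p-value 9.13e-13) and of IER3 (0.65, adjusted p-value 1.87e-12). IL1B and TNIP1 fell, with a log2FC of -0.65 and -0.13. VCAM1, SELE, CCL2, CCL5, CXCL10 and BCL2A1 had too few reads for a test.

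**Figure D4:**
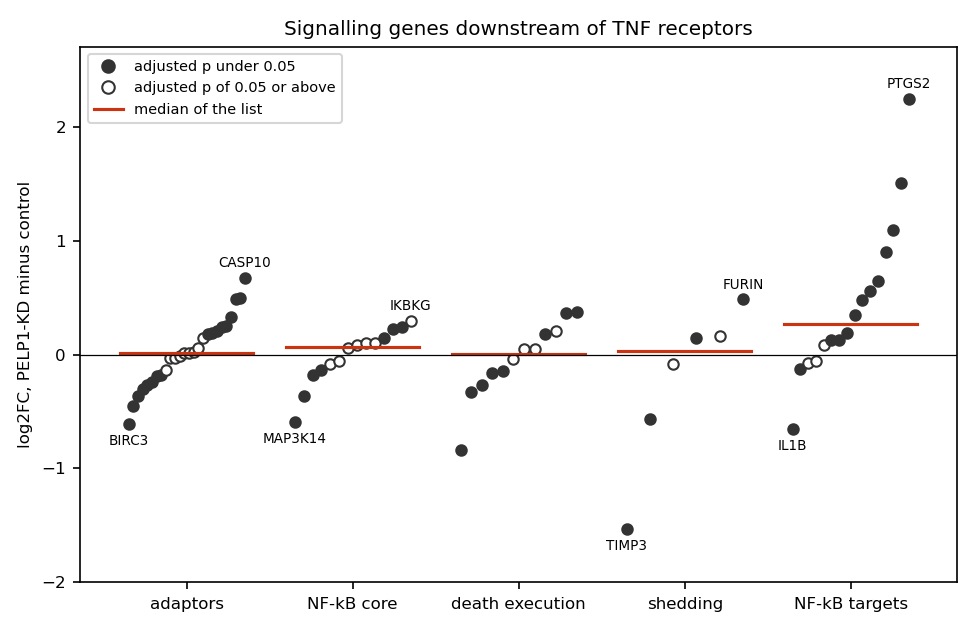
The vertical axis gives the log2FC (PELP1-KD minus control) of each tested gene in 5 signalling lists along the horizontal axis, filled where the adjusted p-value was below 0.05, with a red line at each list's median. The medians are 0.01, 0.07, 0.003, 0.03 and 0.27 from left to right, and the genes at both ends are named in the lists other than death execution.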

How the data were processed

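RNA-seq was done by the authors on 3 control and 3 PELP1-KD replicates, as single reads of 50 bases from stranded mRNA libraries. The deposited values are raw read counts per gene symbol. The submitters' processing notes name bcl2fastq, TopHat2, SAMtools, HTSeq and the build hg19, and versions, annotation and strand setting are not given in the sources used here. Rows that name no gene held 41.0% to 41.4% of each replicate, most of them (32.5% to 32.9%) with more than a single alignment, and these rows were left out.

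Counts were tested across all genes with edgeR 4.0.16 in R 4.3.3: filterByExpr with a minimum count of 10, TMM scaling (factors 0.978 to 1.02), quasi-likelihood test without covariates, and Benjamini-Hochberg adjustment, with calls at an adjusted p-value of 0.05. Standard errors were taken as |log2FC| over the root of the F statistic. CPM used the TMM-scaled library size. Exon lengths and positions came from GENCODE release 29 on GRCh38. The code was tested on simulated counts. Replicates of a group differed by more than sampling noise (chi-square per degree of freedom 1.47 to 4.11). Alternatives used RLE factors, library totals, DESeq2 1.42.0, voom in limma 3.58.1, other filters, a replicate block and each replicate left out.

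All 46 genes are named, the tested ones with their levels, and of each signalling list up to 3 called genes with the lowest p-values in each direction. The members and lists were chosen with earlier results of these data known. Some genes of the signalling and marker lists are counted but not reported by name here. Proteomics and TCGA data were not analysed here.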

Additional observations from a re-analysis of the deposited data

How the results depend on the processing

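The numbers of members higher and lower (11 and 4) ranged from 10 to 11 and from 3 to 5 over the alternatives tried, and those beyond a log2FC of 1 (3 and 3) from 2 to 4 and from 2 to 3. The log2FC of PELP1 ranged from -0.99 to -0.92. The numbers of signalling genes (28 and 21) ranged from 22 to 35 and from 17 to 22. For the single members, 331 alternative values kept direction and side of the threshold, 4 (all RELT) lost the call, 1 (TNFRSF19) gained it and 12 changed sign. The sign changes were all in members without a call. With library totals TNFRSF21 was at 0.032 and LTBR at 0.035. Leaving out single replicates gave -0.12 to 0.14 for TNFSF9 (the sign changed without PELP1-KD replicate 3), -0.33 to 0.067 for TNFSF13 (control 3, PELP1-KD 1), -0.031 to 1.12e-04 for TNFRSF21 (control 2), -0.25 to 0.041 for TNFRSF25 (control 3), -0.27 to 0.029 for TNFRSF10C (control 3, PELP1-KD 2) and -0.076 to 0.022 for LTBR (control 2, control 3, PELP1-KD 3). The cause was not tested. With at least 10 reads required in every replicate, TNFSF15, TNFSF4 and TNFRSF10C were not tested.

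Deviations of same-numbered replicates correlated at 0.039, 0.065 and -0.078, which cannot show whether these replicates were handled together. With the replicate block, 11 members were higher and 4 lower, and 31 and 22 signalling genes were higher and lower. The log2FC of PELP1 was then -0.97. Over all tested genes the block gave 3140 higher and 3335 lower, in place of 2904 and 3103. The 19 members without a test were those left out by the filter on low reads. In a fit without that filter, the 13 of them with reads had adjusted p-values of 0.165 to 0.911 in edgeR.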

Other observations

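Summed per exon length, the 28 receptors had 316, 344 and 343 RPKM in the control replicates and 382, 382 and 374 RPKM in the PELP1-KD replicates, and the 17 ligands had 18.2, 19.1 and 18.1 RPKM against 20.7, 21.5 and 19.9 RPKM. In both sums the groups did not overlap, but a few genes weighed heavily. In mean RPKM, control against PELP1-KD, TNFRSF12A rose from 107 to 131 and TNFRSF1A fell from 29.6 to 23.9. Among the ligands TNFSF18 rose from 0.934 to 3.22 and TNFSF12 went from 9.42 to 8.84. TNFRSF12A, TNFRSF21 and TNFRSF10B together made up 63.3% to 65.7% of the receptor sum in every replicate. The sum over the death domain receptors was 150 RPKM ± 2.03 in control and 154 RPKM ± 2.46 in PELP1-KD cells (SD, n = 3 each), and the groups overlapped. That over the decoys was 18.6 RPKM ± 0.50 and 24.7 RPKM ± 0.907, and that over the receptors without a death domain 165 RPKM ± 15.9 and 201 RPKM ± 3.15 (SD, n = 3 each). Control replicate 1, with 147 RPKM in the last of these sums against 173 and 176 RPKM in the other controls, was the low library, as it was for TNFRSF12A.

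Among the changed ligands, the partner receptors were near the floor for TNFSF18 and TNFSF4, at 2.02 CPM in control cells for TNFSF15 (TNFRSF25) and at 109 CPM for LTB (LTBR). Among the changed receptors, ligand reads were absent for CD40 and TNFRSF11A and near the floor for TNFRSF1A and TNFRSF1B. TNFSF10, a ligand of TNFRSF10A, TNFRSF10B, TNFRSF10D and TNFRSF11B, stood at 13.5 CPM in control cells, and TNFSF12, the ligand of TNFRSF12A, at 17.7 CPM. Within a replicate, the ratio of TNFRSF12A to TNFSF12 per exon length was 9.11, 12.4 and 12.6 in control and 14.2, 14.1 and 16.5 in PELP1-KD replicates.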
